A study of Mus musculus with 8 samples.

Results

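Csmd1 and Dlgap2 are long neighbouring genes of mouse chromosome 8 in which adenines called as N6-methyladenine fell mostly in lists of opposite genotype. The members were the called adenines between the start and the end of either gene, 27 of the 17418 in the 4 lists of the series. Dlgap2 (chr8:14095776-14853426, mm10) spans 757651 bases and held 13 of them. Csmd1 (chr8:15892538-17535385) spans 1642848 bases and held 14. The genes were chosen by their numbers of called sites in these same lists, KO against WT, so those numbers are given as a description without a test.

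The series examined mouse TT2 embryonic stem (ES) cells of a C57BL6 x CBA background, at passage 5 to 10 and grown without feeder cells. Chromatin bound by a customized antibody against the histone variant H2A.X was isolated without crosslinking, and its DNA was separated into long (L) and short (S) parts for single-molecule real-time sequencing. Cells were wild type (WT) or carried a knockout (KO) of Alkbh1, which encodes an AlkB family dioxygenase, and the comparison asked how its loss changed adenine methylation. The 4 groups had 2 replicates each, but a single list of called adenines was given per group, with both replicates together. Sets of 4 numbers below follow the list order WT L, KO L, then WT S, KO S. The labels do not say how the knockout was made or whether it is 1 clone. A list cannot be split by replicate, so no difference between lists below has a replicate check and none was tested.

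N6-methyladenine is an adenine with a methyl group on its exocyclic nitrogen, a common mark in bacteria whose presence in mammalian DNA is debated. A polymerase reading such a base tends to pause, and the ratio of the observed inter-pulse duration (IPD) to the one predicted without modification measures the pause. Dlgap2 encodes a scaffold protein of the postsynaptic density, where DLGAP proteins connect the PSD-95 and SHANK scaffolds beneath excitatory receptors. Csmd1 encodes a very large membrane protein built of CUB and sushi domains that inhibits complement and is known mainly from the brain.

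The sequences shown are those of the 9 closely spaced sites, of the highest IPD ratio and of the single site of each gene that goes against its pattern. Each stretch of 41 bases is the context given for a call in the deposited list, written 5′ to 3′ on the strand of the called base. The capital A at its centre is the called adenine. In Dlgap2 the following show the group of 4 sites in KO L, the pair in KO S and the gene's only site in WT.
Dlgap2 KO L site 1, chr8:14138580-14138620, plus strand: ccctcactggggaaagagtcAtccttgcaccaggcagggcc
Dlgap2 KO L site 2, chr8:14138617-14138657, plus strand: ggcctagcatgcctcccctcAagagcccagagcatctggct
Dlgap2 KO L site 3, chr8:14138680-14138720, plus strand: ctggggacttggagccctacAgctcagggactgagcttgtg
Dlgap2 KO L site 4, chr8:14138728-14138768, plus strand: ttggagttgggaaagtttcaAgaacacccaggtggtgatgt
Dlgap2 KO S site 1, chr8:14240134-14240174, minus strand: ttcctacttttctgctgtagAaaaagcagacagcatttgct
Dlgap2 KO S site 2, chr8:14240235-14240275, minus strand: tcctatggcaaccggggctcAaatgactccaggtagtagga
Dlgap2 WT S site 1, chr8:14193511-14193551, plus strand: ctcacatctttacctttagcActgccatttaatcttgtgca
In Csmd1 the following show the group of 3 sites in WT S, the site with the highest IPD ratio, and the gene's only site in KO.
Csmd1 WT S site 4, chr8:17241917-17241957, minus strand: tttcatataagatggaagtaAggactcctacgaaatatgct
Csmd1 WT S site 5, chr8:17242033-17242073, plus strand: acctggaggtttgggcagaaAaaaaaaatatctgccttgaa
Csmd1 WT S site 6, chr8:17242067-17242107, minus strand: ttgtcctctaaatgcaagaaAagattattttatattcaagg
Csmd1 WT L site 1, chr8:16232156-16232196, plus strand: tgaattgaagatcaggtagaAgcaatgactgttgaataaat
Csmd1 KO L site 1, chr8:16427016-16427056, minus strand: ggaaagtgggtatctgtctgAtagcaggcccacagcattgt
Where contexts of chromosome 8 overlapped, every one of the 1771 positions covered more than once had the same letter in each context, the 11 such positions among the members included. None of the 27 contexts occurred at a second call in the 4 lists, and how often other contexts did was not counted.

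Dlgap2 carried 7 called adenines in KO L and 5 in KO S, against none in WT L and 1 in WT S. Csmd1 showed the opposite distribution, with 6 sites in WT L and 7 in WT S against 1 in KO L and none in KO S. Over both parts Dlgap2 thus held 12 KO sites and 1 WT site, and Csmd1 held 13 WT sites and 1 KO site. The map of called adenines shows that the sites of the leading genotype were spread over most of each gene in both parts. No member base was called in more than 1 list. How often other bases were was not counted, so this is not read as a trait of these genes. The closest sites of different lists lay 11.8 kb apart in Dlgap2 (KO L and KO S) and 7.27 kb apart in Csmd1 (WT L and WT S).

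**Figure D1:**
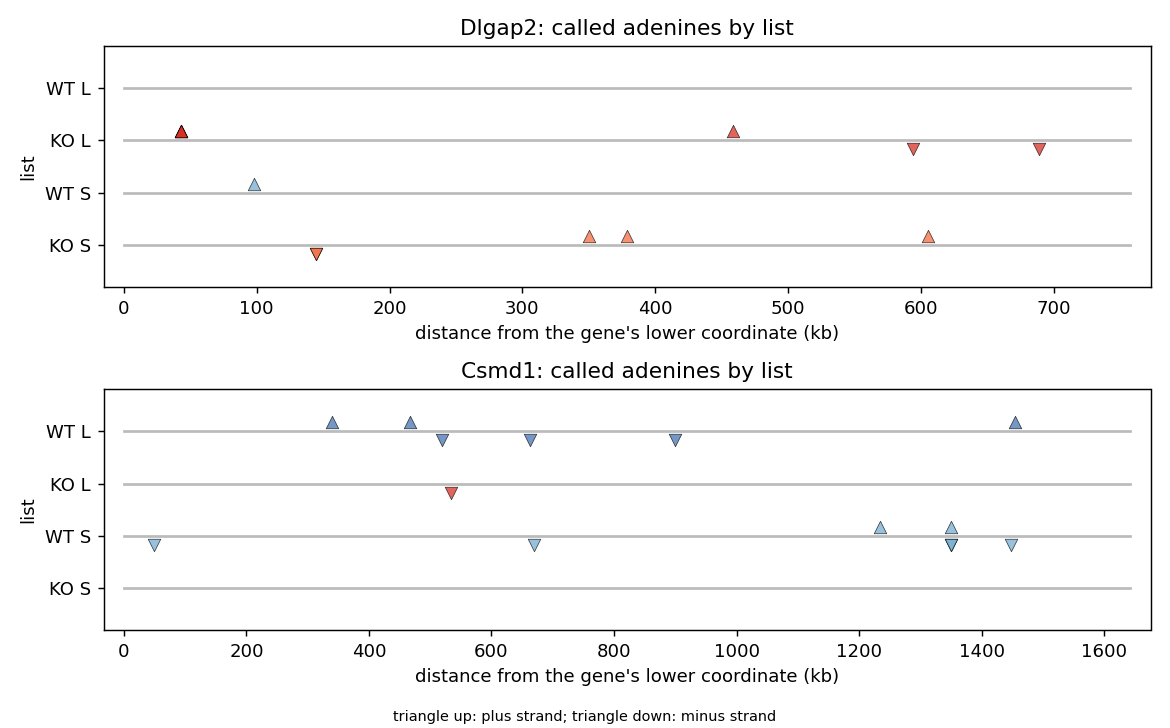
Positions of the 27 called adenines in Dlgap2 (top) and Csmd1 (bottom), with the distance from the gene's lower coordinate in kb on the x axis and 1 line per list. Triangles pointing up are on the plus strand and those pointing down on the minus strand; overlapping triangles are sites within 150 bases, and Dlgap2 is empty in WT L as Csmd1 is in KO S.

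In KO L the Dlgap2 sites formed 1 group and 3 single sites. Positions 14138600, 14138637, 14138700 and 14138748 were all on the plus strand, with successive spacings of 37, 63 and 48 bases. Their coverage was 10, 18, 16 and 16, and their IPD ratios were 2.49, 2.50, 3.21 and 2.43. This group began 42.8 kb into the gene and made up 57.1% of its sites in KO L. The remaining sites lay far apart, at 459, 594 and 689 kb from the gene's lower coordinate. Position 14554512 (plus) had coverage of 12 and an IPD ratio of 2.57. Position 14689433 (minus) had the highest coverage of the gene, 24, and its lowest IPD ratio, 1.85. Position 14784780 (minus) had coverage of 9 and an IPD ratio of 3.70. Spacings before these 3 sites were 415764, 134921 and 95347 bases.

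In KO S a pair and 3 single sites were called in Dlgap2. Positions 14240154 and 14240255 lay 101 bases apart on the minus strand, with coverage of 13 and 18 and IPD ratios of 3.71 and 2.19. These ratios of a single pair span most of the range seen in the gene. Positions 14445681, 14474218 and 14701250 were on the plus strand, with spacings of 205426, 28537 and 227032 bases. Their coverage was only 7, 7 and 10, and their IPD ratios were 2.84, 3.02 and 2.56. The single WT site, at 14193531 on the plus strand in WT S, had coverage of 23 and an IPD ratio of 2.68, which lay within the range of the KO sites. Dlgap2 sites of the 4 lists together were on the plus strand in 9 of 13 cases.

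The Csmd1 sites of WT L were all single, with at least 53418 bases between neighbours. Position 16232176 (plus) had an IPD ratio of 13.3 at coverage of 9, the highest ratio of all members. Of the 203 WT L sites on chromosome 8 outside the genes, 3 had a higher ratio. Position 16791751 (minus) followed with 6.11 at coverage of 7. The other ratios were close to each other, at 2.16 for 16359080 (plus, coverage 6), 2.29 for 16412498 (minus, 9), 2.68 for 16555411 (minus, 10) and 2.30 for 17347603 (plus, 11). Spacings along the gene were 126904, 53418, 142913, 236340 and 555852 bases. The only KO site of Csmd1, at 16427036 on the minus strand in KO L, had an IPD ratio of 4.05 at coverage of 7 and lay 14538 bases from the nearest WT L site.

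In WT S the gene held a group of 3 sites and 4 single ones. Positions 17241937 (minus), 17242053 (plus) and 17242087 (minus) lay within 151 bases, with spacings of 116 and 34, so that this group, unlike that of Dlgap2 in KO L, had calls on both strands. Their coverage of 20, 26 and 25 included the highest values in either gene, and their IPD ratios of 2.34, 2.23 and 2.37 were nearly equal. Position 15941876 (minus) had a ratio of 4.22 at coverage of 6. Positions 16562684 (minus), 17127530 (plus) and 17340141 (minus) had ratios of 2.13, 2.37 and 2.17 at coverage of 18, 12 and 16. The spacings outside the group ran from 98054 to 620808 bases, and 9 of the 14 Csmd1 sites of all lists were on the minus strand.

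The 10 other RefSeq genes that lie wholly inside either gene, 3 in Dlgap2 and 7 in Csmd1, held none of the 27 sites. The gene table gives no exons, so sites were placed in a gene but not in its exons or introns. With 5 kb added on each side of the genes every count stayed as it was.

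Set against the chromosome, Dlgap2 held a larger part of the KO sites than of the length, in both L and S. Csmd1 did so for the WT L sites, while its part of the WT S sites was close to its part of the length. Chromosome 8 held 209, 190, 453 and 228 sites in the list order, or 1.66, 1.51, 3.60 and 1.81 per Mb between its first and last called site. Dlgap2 held 9.24 sites per Mb in KO L and 6.60 in KO S, against 1.32 in WT S. Its share of the chromosome's sites was 3.68% in KO L (exact 95% Clopper-Pearson interval 1.49% to 7.44%), 2.19% in KO S (0.716% to 5.04%) and 0.221% in WT S (0.00559% to 1.22%), while it covers 0.603% of that span. Csmd1 held 3.65 sites per Mb in WT L, 4.26 in WT S and 0.609 in KO L. For 1.31% of the span, its share was 0.526% in KO L (0.0133% to 2.90%). In WT it was 2.87% (1.06% to 6.14%) in the long part and 1.55% (0.623% to 3.16%) in the short part. These intervals cover counting error only and treat sites as independent, although some members lie within 150 bases of each other. They take no account of the choice of the genes by these same counts, so they do not test a share against the span. The lists name called bases alone, so the depth at uncalled bases of the genes is unknown and no limit is given for a list without a site.

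**Figure D2:**
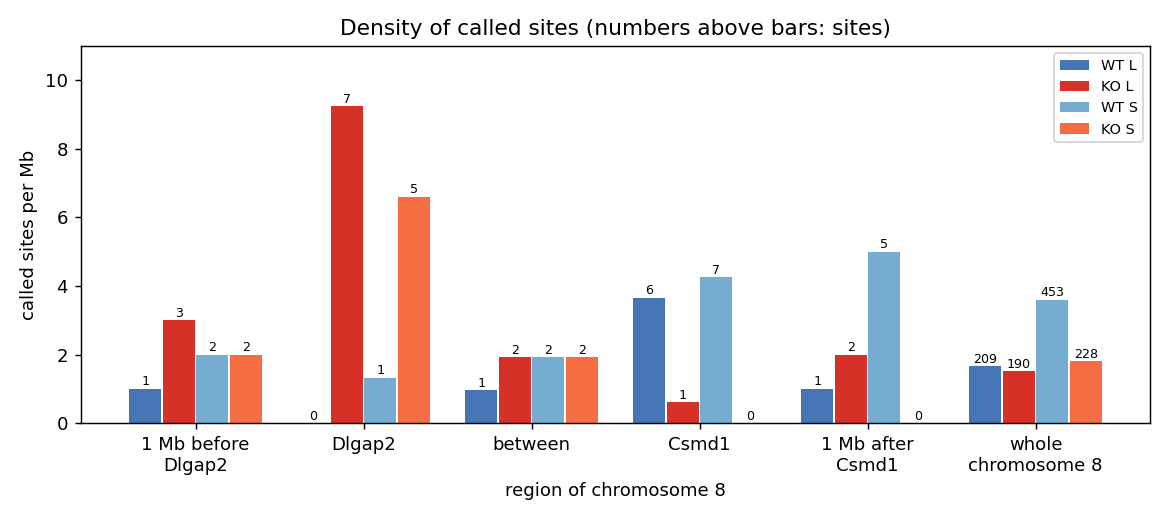
Called sites per Mb (y axis) in Dlgap2, Csmd1, the stretch between them, 1 Mb on either side and the whole of chromosome 8 (x axis), with 1 bar per list and the number of sites above it. Of the regions shown, Dlgap2 has the highest density in both KO lists (9.24 and 6.60 per Mb). Csmd1 is above the chromosome's density in WT L (3.65 against 1.66) but close to it in WT S (4.26 against 3.60).

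The stretch of 1039111 bases between the genes held 1, 2, 2 and 2 sites in the list order. In the 1 Mb before Dlgap2 the numbers were 1, 3, 2 and 2. The 1 Mb after Csmd1 held 1, 2, 5 and 0. Of the 14 annotated genes between Dlgap2 and Csmd1, 4 of them protein-coding, 2 held sites. Arhgef10, which encodes a guanine nucleotide exchange factor, had 1 in WT L and 1 in KO S, and the lncRNA gene Gm46033 had 1 in WT S and 1 in KO S. Among the 3 nearest protein-coding genes before Dlgap2, Erich1 held 2 sites in WT S and the others none. Mcph1, Angpt2 and Agpat5, the nearest after Csmd1, held none.

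Chromosome 8 was then tiled outward from each gene's start with windows of that gene's length. The 164 other windows of the length of Dlgap2 held 0 to 5 sites in KO L (median 1) and 0 to 7 in KO S (median 1), beside the gene's 7 and 5. In WT L they held 0 to 6 (median 1) and in WT S 0 to 12 (median 2), beside 0 and 1. A KO minus WT difference at least as large as that of Dlgap2 was met by 0 windows in L, or 0%, and by 3 in S, or 1.83%. No window, 0% again, met both. Since Dlgap2 was chosen for this very difference, nothing is read from these shares. The nearest windows were 83799668 to 84557318, over part of the calcium channel gene Cacna1a, with 0, 3, 2 and 7 sites, and 114105708 to 114863358, over part of Wwox, with 1, 4, 1 and 3.

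Csmd1 was set beside windows of its own length in the same way, again as a description. The 74 other windows of 1642848 bases held 0 to 9 sites in WT L (median 2) and 0 to 18 in WT S (median 5), beside 6 and 7 in the gene. In KO L they held 0 to 7 (median 2) and in KO S 0 to 10 (median 2.5), beside 1 and 0. A WT minus KO difference at least as large as in Csmd1 was seen in 5 windows in L, or 6.76%, and in 12 in S, or 16.2%. In both parts together it was met by 1 window, or 1.35%, from 124320506 to 125963353, with 7, 2, 14 and 3 sites. WT S is the longest list, and the median window held 2 more sites in WT S than in KO S but 0 more in WT L than in KO L. With all 4 lists summed, the 14 sites of Csmd1 were near the median of its windows, 13, whereas the 13 sites of Dlgap2 were above the median of 6 and were reached by 11 of 164 windows.

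**Figure D3:**
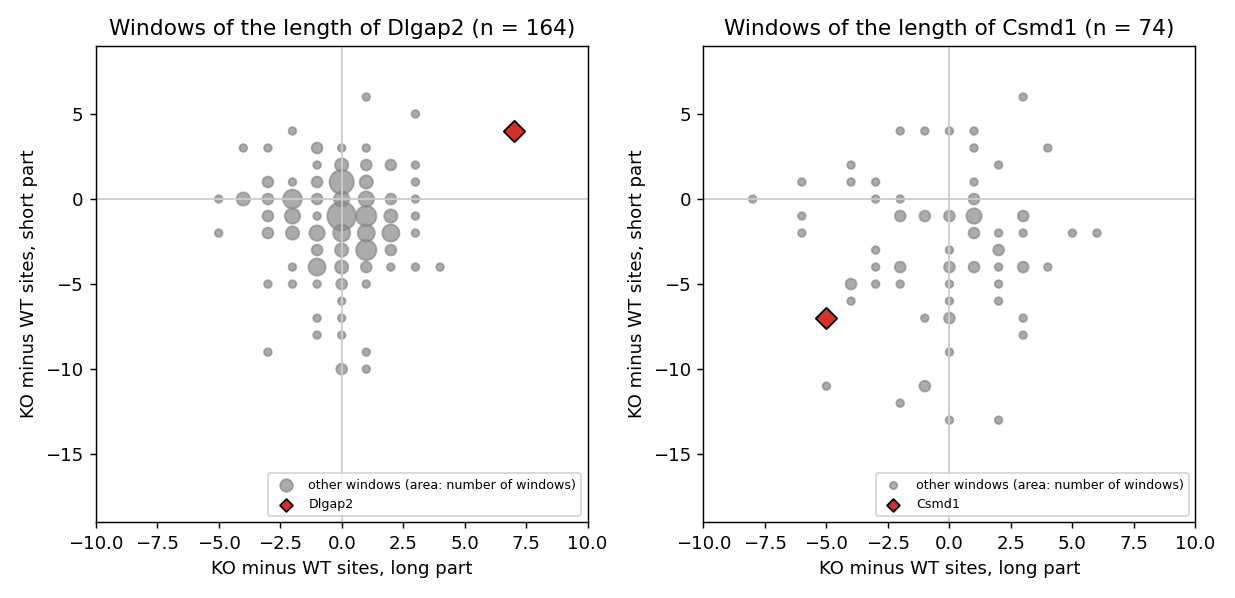
KO minus WT sites in the long part (x axis) and the short part (y axis) in windows of chromosome 8 of the length of Dlgap2 (left, 164 windows) and Csmd1 (right, 74 windows). The area of a grey circle gives the number of windows at that point and the diamond is the gene; Dlgap2 is at 7 and 4, with 0 windows as far out in L and 3 in S, and Csmd1 is at -5 and -7, with 5 windows as far out in L and 12 in S.

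Some of these contrasts were lost among calls of higher coverage or score. At coverage of 15 or more, Dlgap2 kept 0, 4, 1 and 1 sites in the list order, so its difference in S was gone, and Csmd1 kept 0, 0, 5 and 0, so its difference in L was gone. At a modification score of 30 or more, Dlgap2 kept 0, 1, 1 and 1, and its difference in L was matched by 27 windows. In S no difference was left, so the 105 windows counted there are those with KO at or above WT. Csmd1 then kept 0, 0, 3 and 0, and its difference in S was matched by 12 windows. In L no difference was left, and the 50 windows counted are those with WT at or above KO. At a score of 10 or more for identification as N6-methyladenine, Dlgap2 kept 0, 3, 1 and 3. Csmd1 kept 1, 1, 3 and 0, so its difference in L was gone there too. With runs of sites of a list within 1 kb of each other counted once, an alternative chosen after seeing the data, Dlgap2 had 0, 4, 1 and 4 and Csmd1 had 6, 1, 5 and 0, so each difference kept its direction.

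Coverage at the members lay within the range of the other chromosome 8 sites, but Dlgap2 in KO L had a median above their upper quartile of 14. Coverage was above the midpoint of the other sites of the list at 9 of 13 Dlgap2 sites and 7 of 14 Csmd1 sites. The Dlgap2 sites had a median of 16 in KO L (9 to 24) and 10 in KO S (7 to 18), beside medians of 9 and 10 at the other chromosome 8 sites of those lists. Csmd1 sites had a median of 9 in WT L (6 to 11) and 18 in WT S (6 to 26), beside 9 and 15. In KO L the highest coverage of Dlgap2, 24, was at a single site, and the grouped sites had 10, 18, 16 and 16. The part of coverage in the calls was not tested.

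Where a gene had more than 1 site in a list, its median IPD ratio lay between the quartiles of the other chromosome 8 sites of that list. The medians were 2.50 for Dlgap2 and 2.61 for the other sites in KO L, and 2.84 and 2.65 in KO S. For Csmd1 the values were 2.49 and 2.67 in WT L, and 2.34 and 2.47 in WT S. Over the 4 lists the median was 2.57 in Dlgap2 (95% order-statistic interval 2.43 to 3.21) and 2.36 in Csmd1 (2.17 to 4.22), against 2.59 outside the genes, and 11 of the 27 sites were above the midpoint of the other sites of their list. The highest ratios among the members came at low coverage. The 4 members with a ratio above 4, all in Csmd1, had coverage of 6 to 9. The 156 such sites elsewhere on the chromosome had a median coverage of 9 and reached 80, beside a median of 11 at all other sites. The other WT L sites of any ratio also had a median of 9. A relation between ratio and coverage was not tested.

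**Figure D4:**
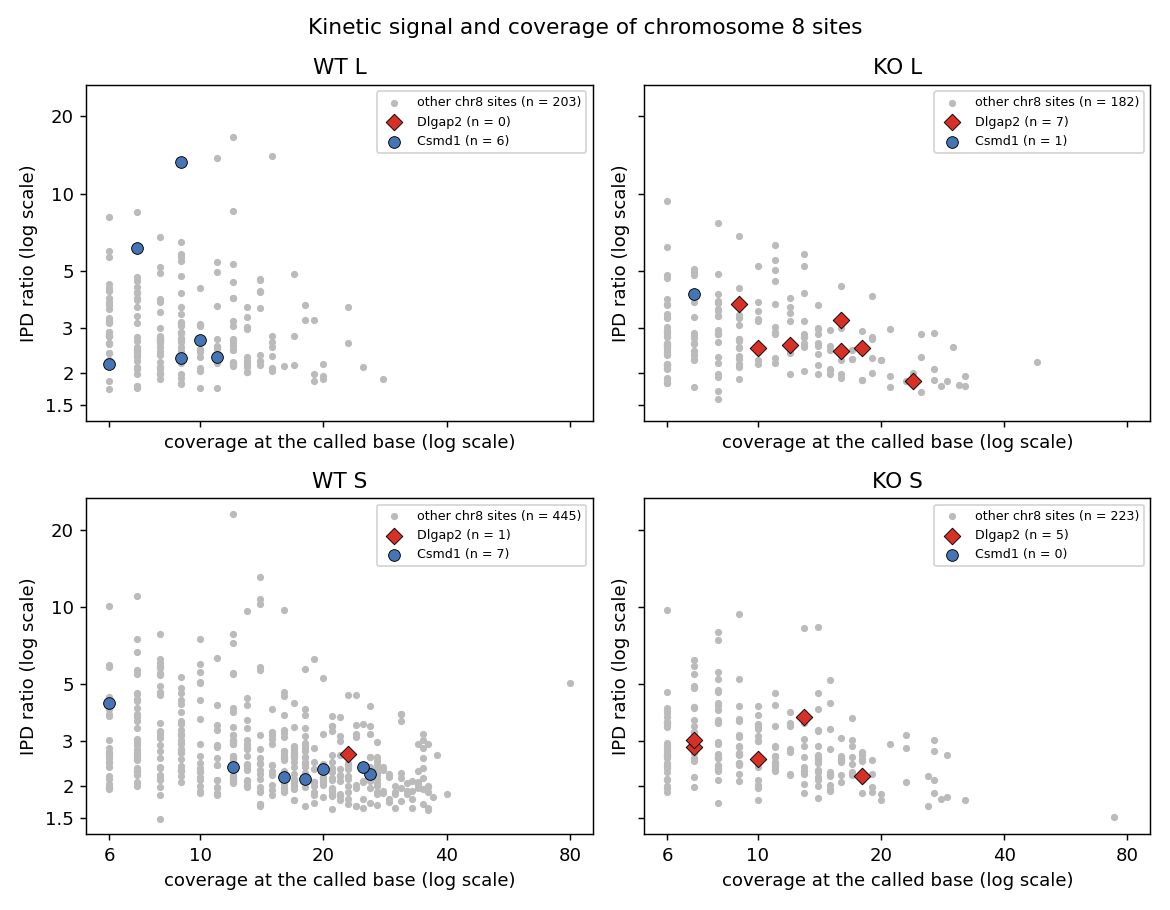
IPD ratio (y axis, log scale) against coverage at the called base (x axis, log scale) for the chromosome 8 sites of each list, with Dlgap2 as diamonds, Csmd1 as circles and all other sites in grey. Members lie among the other sites, and the highest ratio, 13.3 in Csmd1 in WT L, was measured at coverage of 9.

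An estimated modified fraction, the share of molecules read as methylated, was deposited for 15 of the 27 sites, those with coverage of 11 or more. In Dlgap2 the group in KO L had 50.2% (deposited bounds 12.7% to 100%), 60.2% (23.3% to 97.7%) and 61.0% (16.2% to 100%) at its last 3 positions. The pair in KO S had 66.6% (16.3% to 100%) and 53.1% (16.7% to 100%), and the WT S site had 65.3% (26.5% to 100%). Position 14554512 had 72.6% (24.6% to 100%) and 14689433 had 29.0% (0% to 70.6%). Every pair of these bounds overlapped, so the WT site could not be told from the KO sites by its fraction.

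In Csmd1 the group of 3 sites in WT S had 50.0% (0.2% to 85.1%), 31.1% (3.6% to 62.8%) and 50.7% (0% to 84.8%). The highest value of either gene was 96.8% (34.9% to 100%) at 17127530 and the lowest 21.8% (0% to 65.9%) at 16562684, both in WT S, and their bounds overlapped as well. Position 17340141 had 63.9% (22.3% to 100%) and 17347603, the only WT L site with an estimate, 53.3% (0% to 100%). Over the 4 lists the median was 60.6% in Dlgap2 (8 sites) and 50.7% in Csmd1 (7 sites), against 69.1% at 578 other chromosome 8 sites. By list, Dlgap2 had a median of 60.2% in KO L (5 sites), close to the 62.35% of the other sites there. In KO S it had 59.85% (2 sites), beside 72.25%. Csmd1 had 50.35% in WT S (6 sites), beside 68.0%. The bounds reached 100% at 9 of the 15 members and 0% at 4, so single sites do not bear a comparison of degree.

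**Figure D5:**
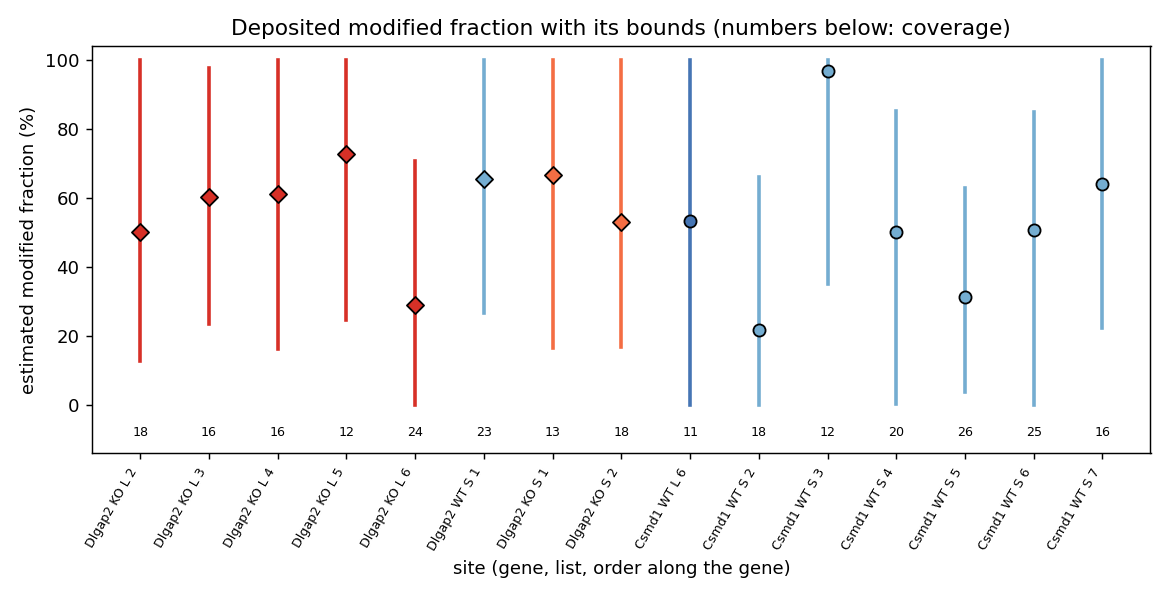
Estimated modified fraction in percent (y axis) of the 15 member sites that have one (x axis), with the deposited lower and upper bounds as bars and the coverage printed below; diamonds are Dlgap2 and circles Csmd1, coloured by list. Bounds are wide at every site, from 12.7% to 100% at the second Dlgap2 site of KO L for example.

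Scores of the calls were low to moderate. The modification score ran from 20, the lowest in any list, to 34, with medians of 24 in Dlgap2 and 23 in Csmd1 against 23 elsewhere on the chromosome. It reached 30 at 6 members, and its upper quartile was 26.5 over both genes and 27 elsewhere on the chromosome. The identification score, which states how well the kinetics fit N6-methyladenine in particular, had medians of 11 and 7 against 7. It reached 20 at 3 members, 14138700 (24) and 14445681 (30) in Dlgap2 in KO and 16427036 (24) in Csmd1 in KO L, and at 106 of the 1053 other sites. The Csmd1 site that goes against the gene's pattern is thus its best identified one, at coverage of 7.

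Closely spaced sites were also called elsewhere on the chromosome. Of the 27 members, 9 had another site of their list within 1 kb, or 33.3% (exact interval 16.5% to 54.0%), against 26.5% of the other sites (23.9% to 29.3%). For Dlgap2 the share was 46.2% (19.2% to 74.9%) and for Csmd1 21.4% (4.66% to 50.8%). On chromosome 8, KO L had 3 groups of 3 or more sites within 150 bases, the Dlgap2 group included, which was the 1 group of 4. KO S had 22 groups of 2 or more, 1 of them the Dlgap2 pair. WT S had 17 groups of 3 or more, of which the Csmd1 group was 1 and 8 held 4 or more. No list had a further site within 5 kb of these 3 groups.

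The base before the called adenine was most often C in Dlgap2 and A in Csmd1. In Dlgap2 a C stood before the called A at 8 of 13 sites, or 61.5% (31.6% to 86.1%), as at 3 of the 4 grouped sites of KO L printed above. In Csmd1 an A stood there at 9 of 14, or 64.3% (35.1% to 87.2%). The same bases preceded 28.5% (C, 25.8% to 31.3%) and 28.0% (A, 25.3% to 30.8%) of the other chromosome 8 sites. The base after the called A was G, the context AG, at 3 of 13 sites in Dlgap2, 23.1% (5.04% to 53.8%), and at 5 of 14 in Csmd1, 35.7% (12.8% to 64.9%), against 22.9% elsewhere (20.4% to 25.5%). The longest run of A around a call was 10 bases, at 17242053, followed by 7 at 16359080 and 5 at 14240154. GC content of the contexts had medians of 46.3% in Dlgap2 and 41.5% in Csmd1, against 41.5%, and was above 60% at the first 3 grouped sites of KO L. These features were looked at after the sites were known, and grouped sites share their surroundings, so the intervals are a description.

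Relatives of both genes had fewer sites than Dlgap2 and Csmd1 themselves. The other 3 genes of the DLGAP family held 1 site in all, in Dlgap1 in WT S, which was named after its value was seen. The other CSMD genes both held sites. Csmd2 had 3 in WT S and none in the other lists, and Csmd3 had 1 in each list. Both are longer than 200 kb, and the median of chromosome 8 genes of over 200 kb was 3 sites. Of 21 genes of postsynaptic scaffolds and receptors 9 held sites, beside 10.1% of all 49943 genes, with 8, 3, 10 and 6 sites in the list order. Summed over the parts, 2 of the 21 had more sites in KO and 6 more in WT, beside 3.17% and 6.2% of all genes. Longer genes have more room for sites, and the lists were not matched to other genes by length. Dlg2, which encodes the scaffold PSD-93, had 1, 0, 1 and 3 sites, the AMPA receptor gene Gria1 had 3, 0, 2 and 0, and Gria2 had 2, 0, 0 and 1. Nlgn1, which encodes the adhesion protein neuroligin 1, had 1, 0, 2 and 1. Of 16 genes of complement control or related domains 4 held sites, beside the same 10.1%, with 3, 2, 1 and 0 sites in that order, with 1 gene higher in KO and 2 in WT. Among them Sez6 had 2, 0, 0 and 0. Alkbh1 itself (chromosome 12) held no called site, which does not test the knockout.

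Other long genes of the chromosome also held several sites each. Of its 49 genes over 200 kb, 48 held sites (median 3). Csmd1 had the most sites and is the longest, while Dlgap2 was second in sites and number 11 in length. Dlgap2 had 17.2 sites per Mb against 8.52 in Csmd1 and a median of 8.55. This density was not particular to Dlgap2, as Cacna1a (29.8), Sh3rf1 (29.0) and Rnf150 (21.9), named after their values were seen, were denser. Next in number of sites came Sgcz, a sarcoglycan gene, with 6, 2, 1 and 3 in the list order. Tenm3, which encodes a teneurin, had 1, 4, 6 and 1, and Wwox, the gene of an oxidoreductase at a fragile site, had 1, 4, 4 and 3. Sgcz and Tenm3 thus had their excess in opposite genotypes in L and S, as 13 of the other 47 long genes did. More sites in KO in both parts, as in Dlgap2, were found in 5 of the 47 (10.6%), and more in WT in both, as in Csmd1, in 6 (12.8%). Among these, named after their values were seen, the neuregulin gene Nrg1 had 0, 2, 1 and 6 sites and the phosphatase gene Inpp4b had 1, 0, 8 and 0.

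Likeness was measured as the Euclidean distance between the 4 counts, over 1068 other genes above 200 kb. Nearest to Dlgap2 were Cacna1a on chromosome 8 with 1, 3, 0 and 5 sites (distance 4.24), Wwox (4.80) and the teneurin gene Tenm2 on chromosome 11 with 2, 3, 1 and 3 (4.90). Nearest to Csmd1 were the cadherin gene Cdh13 on chromosome 8 with 5, 1, 4 and 0 (3.16), the transcription factor gene Sox5 with 3, 2, 8 and 1 (3.46) and the catenin gene Ctnna2 with 2, 1, 7 and 1 (4.12). Among these 1068 genes a KO minus WT difference as large as in Dlgap2 was found in 0 in L (0%) and 4 in S (0.375%), and a WT minus KO difference as large as in Csmd1 in 2 in L (0.187%) and 6 in S (0.562%). None met both parts for either gene (0% each). As the genes were named for these differences, the shares say only where the rule drew its line.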

How the data were processed

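Each group had 1 list of called adenines in mm10 coordinates, per the submitters' processing notes. The caller's version, the aligner and the filters: not given in the sources used here. The deposited score of a call (20 or more) and the identification score are on the caller's own scale. IPD ratios were deposited by the authors on a linear scale. Coverage, a signal at the called base, was deposited unnormalized and need not count different molecules. The deposited fraction was multiplied by 100.

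Sites were counted between gene start and end from a RefSeq table of GRCm38.p6, whose chromosomes have mm10 coordinates. Whole windows of a gene's length were tiled from its start between the first and the last called site of chromosome 8, and exact Clopper-Pearson intervals (95%) came from SciPy 1.17.1 in Python 3.11.15. Window and spacing counts were tested on simulated data. With 1 list per group no p-value was computed. The members and gene lists were chosen with earlier results of these data known. All members are reported. Other genes were named by position, by 2 or more sites in a chosen list (at most 4 per list), by most sites among genes over 200 kb, or by likeness of counts, and 1 gene so taken is not reported here. Alternatives were a score of 30, coverage of 15, an identification score of 10, 5 kb flanks and a grid moved by 0.5 windows.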

Additional observations from a re-analysis of the deposited data

How the results depend on the processing

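Of 80 values under alternatives, for 18 results, 55 stayed close to the reported value and 25 moved. These results are counts and medians, which cannot change sign. Fewer calls by construction account for most that moved. At a score of 30 or more, Dlgap2 held 1 site in KO L, 1 in KO S and 1 in WT S, and none had a neighbour within 1 kb (0 sites). Csmd1 held 0 in WT L, 0 in KO L and 3 in WT S, with a median coverage of 25. Windows with a difference at least as large then numbered 27 in L and 105 in S for Dlgap2, and 50 in L for Csmd1. At coverage of 15 or more, Dlgap2 held 4 in KO L, 1 in KO S and 1 in WT S, 3 of its sites had a neighbour, and Csmd1 held 0 in WT L and 0 in KO L. Windows numbered 77 in S for Dlgap2 and 51 in L for Csmd1. With either bound no difference was left in S for Dlgap2 or in L for Csmd1. The windows counted there are thus all those without a difference the other way. At an identification score of 10 or more, Dlgap2 held 3 sites in KO L and 3 in KO S, 2 with a neighbour. Csmd1 held 1 in WT L, 1 in KO L and 3 in WT S, 0 with a neighbour, so no difference was left in L. With neighbours within 1 kb counted once, chosen after seeing the data, Dlgap2 held 4 in KO L and Csmd1 was matched by 3 windows in L. Flanks of 5 kb and a shifted grid moved no result by more than 1.5 times. No paired analysis was possible because both replicates of a group share 1 list, and no replicate could be left out. Median coverage at members was 13 in Dlgap2 and 10.5 in Csmd1, which limits each ratio and fraction.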
